A study of Drosophila melanogaster with 2 samples.

Results

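Just below the peaks that passed the irreproducible discovery rate (IDR) threshold, the pooled list of Trachealess (Trh) ChIP-seq held 2678 further peaks, at ranks 2323 to 5000 of 21025 by signal. They are called sub-threshold peaks here. They were chosen by the signal value of the pooled list alone, as the ranks that follow the 2322 peaks past IDR, which fill the 2322 highest ranks. Chromatin came from whole Drosophila melanogaster embryos of the trh-GFP transgenic line, which carries trh fused at its C terminus to GFP. The embryos were collected over 0 to 24 h with both sexes pooled, sonicated and immunoprecipitated with an antibody against GFP, in 2 biological replicates numbered 1 and 3 that form 1 group and share a control alignment. Whole embryos hold every embryonic cell type, so a peak cannot be assigned to the tracheae, and no group of embryos without the transgene was analysed here.

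Trh belongs to the bHLH-PAS transcription factors. It pairs with the broadly expressed bHLH-PAS protein Tango (tgo), and the pair binds short elements built around ACGTG. Embryos need it to form tracheae, salivary ducts and posterior spiracles. An IDR threshold keeps peaks whose ranks are reproducible between replicates.

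The sequences under a few of these summits are given as chosen examples, and do not show how common an element is over the list. Each line gives the gene of the nearest protein-coding transcription start site (TSS), the dm6 position and 101 bp of the plus strand centred on the summit, read from the RefSeq copy of the release 6 genome. Cen, hid and Antp are near the upper end of the ranks, and CG42324 is the lowest. No element is marked in these 4 windows, although the one near Antp holds TGTTTAC, a forkhead-type element.
Cen, chr2L:20681889-20681989: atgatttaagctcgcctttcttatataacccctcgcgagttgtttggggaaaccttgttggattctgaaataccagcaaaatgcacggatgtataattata
hid, chr3L:18193007-18193107: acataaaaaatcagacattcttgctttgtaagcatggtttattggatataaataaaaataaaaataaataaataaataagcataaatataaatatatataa
Antp, chr3R:6914466-6914566: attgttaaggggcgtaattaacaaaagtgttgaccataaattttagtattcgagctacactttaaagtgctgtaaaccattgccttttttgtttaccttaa
CG42324, chr3L:3492458-3492558: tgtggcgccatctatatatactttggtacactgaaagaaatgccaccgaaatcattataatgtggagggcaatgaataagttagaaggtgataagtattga
The window near hid had a GC content of 15.8%, with a long run of A and T, and the other windows at the upper end were less extreme (Cen 38.6%, Antp 31.7%). Windows of 3 of the 5 strongest sub-threshold peaks with TACGTG follow, with TACGTG or its reverse complement in capitals. TACGTG is the form of the Trh and Tango element called the central midline element. The windows near Ubc6 and CG2258 are not shown. The Reg-2 peak lay 20782 bp from that TSS and had a summit within 100 bp in the replicate 1 list alone.
spoon, chrX:5419404-5419504: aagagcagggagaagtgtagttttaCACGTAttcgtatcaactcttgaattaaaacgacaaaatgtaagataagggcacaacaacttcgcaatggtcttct
Trx2, chr2L:9614174-9614274: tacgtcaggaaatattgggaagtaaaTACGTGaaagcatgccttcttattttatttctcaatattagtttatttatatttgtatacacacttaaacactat
Reg-2, chr3L:627301-627401: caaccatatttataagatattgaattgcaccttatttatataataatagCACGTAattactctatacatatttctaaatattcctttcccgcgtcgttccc
Windows from promoters follow in which capitals mark TATCGATA, the DNA replication-related element that the factor DREF binds (RpL10Ab, CG14805), or GGTCACACT, part of core promoter Motif 1 that the factor M1BP binds, on either strand (Csk, Past1). The window near Past1 also holds TATCGATA, left in lower case.
RpL10Ab, chr3L:11822732-11822832: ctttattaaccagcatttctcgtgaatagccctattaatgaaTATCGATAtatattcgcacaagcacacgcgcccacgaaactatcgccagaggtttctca
CG14805, chrX:1877254-1877354: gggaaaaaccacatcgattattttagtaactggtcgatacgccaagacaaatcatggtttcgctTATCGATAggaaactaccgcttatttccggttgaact
Csk, chr3R:11650658-11650758: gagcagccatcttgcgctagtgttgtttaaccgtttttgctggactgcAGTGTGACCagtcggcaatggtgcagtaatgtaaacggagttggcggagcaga
Past1, chr3R:12697579-12697679: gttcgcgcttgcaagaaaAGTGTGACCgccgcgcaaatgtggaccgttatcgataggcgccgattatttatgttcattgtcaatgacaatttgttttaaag

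Signal values of the sub-threshold peaks ran from 48.3 to 74.4 with a median of 56.8. The signal is a score from the authors' peak caller with no stated unit, and serves to rank peaks within a list. Across the upper edge the values were continuous. Rank 2322, the last past IDR, lay at the promoter of drn with a signal of 74.42, and rank 2323 lay 93 bp from the TSS of Cen, a centrosomal protein gene, with 74.40. Rank 5000, in an intron of CG42324, had 48.289 and rank 5001, in a coding exon near Pex2, had 48.286. The deposited −log10 q of the sub-threshold peaks ran from 0.842 to 2.83 with a median of 1.44. A q of 0.05 or less was given to 1564 of them (58.4%) and a q of 0.01 or less to 689 (25.7%). Every sub-threshold peak was 400 bp wide, so positions rest on summits.

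Most sub-threshold peaks were seen again in each replicate's own list. A summit within 100 bp was present in both replicate lists for 2033 of the 2678 (75.9%, exact binomial 95% interval 74.2 to 77.5%), against 41.9% of all pooled peaks. Replicate 1 alone held a summit for 465 (17.4%), replicate 3 alone for 162 (6.05%), and neither for 18 (0.672%). The share in both was 94.2% for peaks past IDR and 58.8% for the next 2678 ranks, 5001 to 7678. Over 4 successive bins of the sub-threshold ranks, of 668 to 670 peaks each, it was 85.4%, 80.9%, 70.6% and 66.8%. The pool holds the reads of both replicates, so support by the replicates is tied to the signal that chose the peaks and was given no test. Peaks are not replicates, and the intervals cover counting error over peaks alone.

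**Figure D1:**
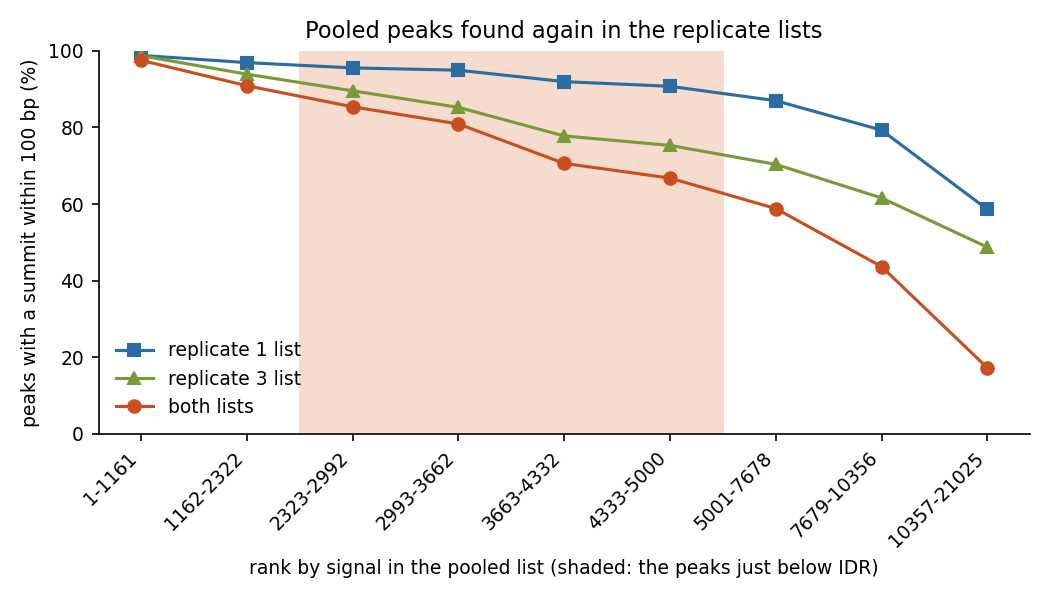
Share of pooled peaks (y axis, percent) with a summit within 100 bp in the replicate 1 list, the replicate 3 list and both, by rank of pooled signal (x axis). Over the shaded sub-threshold ranks the share in both lists falls from 85.4% to 66.8%, and replicate 1 holds more of the summits than replicate 3 in every bin.

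Many peaks without a match had a replicate summit somewhat farther off. Of the 645 sub-threshold peaks not in both lists, 409 (63.4%) were in both when 250 bp was allowed. At that distance replicate 1 held a summit for 99.5% and replicate 3 for 91.6%. Pooled summits were at least 199 bp apart, and with 100 bp allowed the matched summit lay nearest to another pooled summit for 0 peaks in replicate 1 and 1 in replicate 3.

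Being present in both lists did not mean being high in both. Among the 2033 peaks found in both, the replicate 1 signal ran from 14.1 to 137 with a median of 34.2, and the median rank there was 4155. The replicate 3 signal ran from 11.8 to 51.2 with a median of 22.4, at a median rank of 4746. Signals of different lists are not on 1 scale, so each replicate's signal is read within its own list and only ranks are compared between lists. Within the first 5000 ranks of both replicates were 584 of the 2033 (28.7%). Only 3 were within the first 2322 of both, while 159 were that high in replicate 1 and 258 in replicate 3. Replicate 1 gave the better rank to 1116 and replicate 3 to 917.

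**Figure D2:**
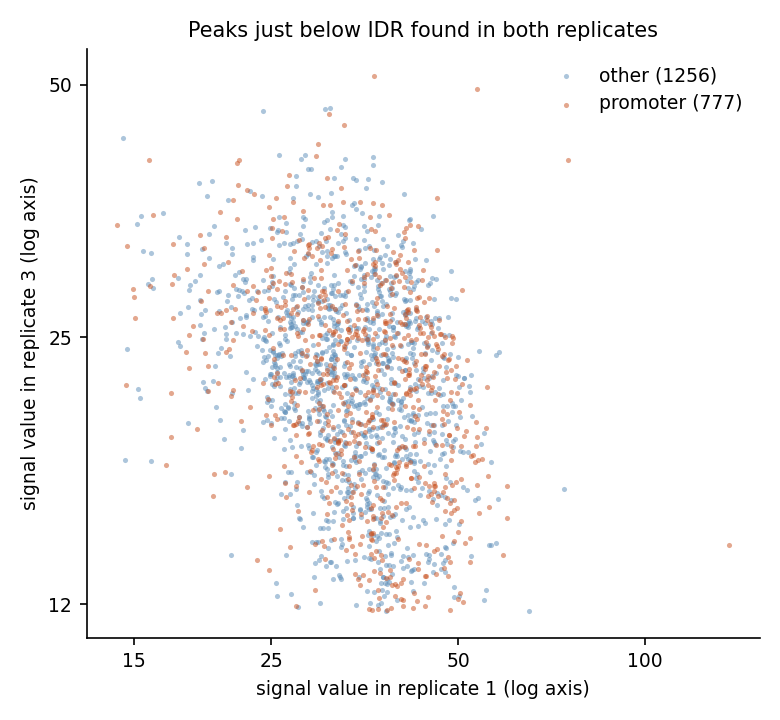
Signal value in replicate 1 (x axis, log scale) and replicate 3 (y axis, log scale) of the 2033 sub-threshold peaks with a summit in both lists, coloured by place. The axes belong to separate lists and are not on 1 scale. Points at promoters (777) and elsewhere (1256) overlap, and replicate 1 signals run from 14.1 to 137 and replicate 3 signals from 11.8 to 51.2.

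The peaks whose worse replicate rank was best show how this looks at single sites. The peak 328 bp from the TSS of C1GalTA, a galactosyltransferase gene, ranked only 3914 in the pool with a signal of 54.7. In the replicates it ranked 920 (signal 75.2) and 1323 (signal 40.7). Its summit was 206 bp from a summit past IDR. The peak at the promoter of Son, at rank 3092 in the pool, ranked 1832 (signal 53.6) in replicate 1 and 889 (signal 49.5) in replicate 3, and was 205 bp from a summit past IDR. Summits past IDR were as close to the peaks in gpp, which encodes the Dot1 histone methyltransferase (204 bp), and Smr, a corepressor gene (201 bp). The other 6 of the 10 lay from 2715 to 52915 bp away. One of them, in an intron of cv-c, a RhoGAP gene needed for the invagination of the tracheae and the posterior spiracles, had replicate ranks of 2469 (signal 45.3) and 2393 (signal 29.4) and a pooled rank of 2354.

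At the other end, the strongest sub-threshold peak in neither list was at the promoter of kud, at rank 2763 with a signal of 67.2. The nearest summits were 137 bp away in replicate 1 and 212 bp away in replicate 3. The strongest peaks in a single list were near Ppcs, Cpr35B, Mtp, pyd and GATAe, at ranks 2329 to 2349. All 5 were in replicate 1 alone, with signals there of 48.5, 55.2, 51.8, 52.0 and 48.6. Their nearest replicate 3 summits were 101 to 330 bp away, so the one at Ppcs missed the distance by 1 bp.

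Sub-threshold peaks lay at promoters less often than peaks past IDR and more often than the next ranks. A promoter is taken as a summit within 500 bp of any annotated TSS, and other summits were given in turn to exon classes, intron or intergenic sequence. At promoters were 1103 of the 2678 sub-threshold summits (41.2%, 39.3 to 43.1%), against 55.1% of peaks past IDR (Fisher's exact test, adjusted p = 5.43e-22) and 33.0% of the next ranks (adjusted p = 1.98e-09). Introns held 1018 (38.0%), more than the 31.4% past IDR (Fisher's adjusted p = 2.13e-06) and close to the 38.1% of the next ranks (adjusted p = 1). Intergenic sequence held 430 (16.1%), against 11.2% past IDR (Fisher's adjusted p = 2.13e-06) and 18.0% below (adjusted p = 0.103). Location was not used to choose the peaks. The two-sided tests were adjusted over 7 classes by the Benjamini-Hochberg method, and their p-values describe these lists and not variation between embryos.

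Few sub-threshold peaks were in exons. Coding exons held 27 of them (1.01%), against 0.258% past IDR (Fisher's adjusted p = 0.00173) and 5.94% of the next ranks (adjusted p = 7.66e-24). Over the 4 rank bins the coding-exon share was 0%, 0.448%, 1.79% and 1.80%. In 3' UTRs lay 49 (1.83%), against 0.646% past IDR (Fisher's adjusted p = 0.000352) and 2.88% below (adjusted p = 0.0341). For 5' UTRs (18) and non-coding exons (33) neither difference passed 0.05.

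**Figure D3:**
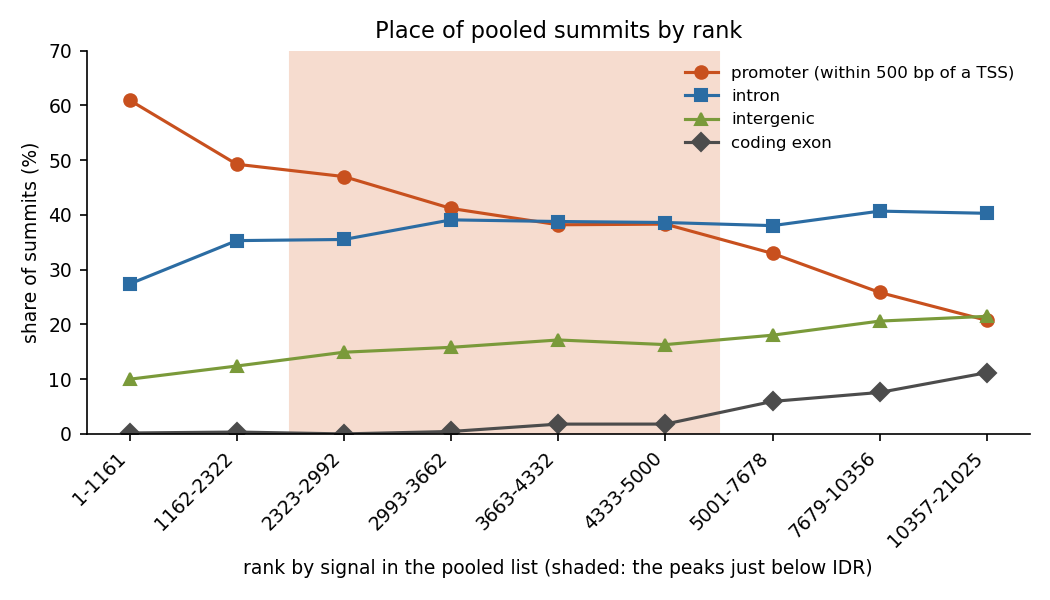
Share of summits (y axis, percent) at promoters, in introns, in intergenic sequence and in coding exons by rank of pooled signal (x axis). The promoter share falls through the shaded sub-threshold ranks from 47.0% to 38.3%, and coding exons stay under 2% there and reach 5.94% in the next ranks.

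Each replicate's own list gave the same direction. Promoters held 45.3% of ranks 2323 to 5000 of replicate 1 and 56.2% of its higher ranks (Fisher's adjusted p = 1.59e-13). In replicate 3 they held 29.9% and 51.8% (Fisher's adjusted p = 6.87e-55). In replicate 3 the same ranks also held 5.38% in coding exons, against 1.08% in replicate 1.

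Sub-threshold peaks found in both replicate lists were at promoters less often than the others. Promoters held 777 of the 2033 (38.2%) and 326 of the 645 others (50.5%, adjusted p = 3.04e-07, Fisher's exact test). For introns the shares were 39.6% and 33.0% (Fisher's adjusted p = 0.0101). Put by place, 70.4% of promoter summits, 79.1% of intronic, 80.0% of intergenic and 25 of the 27 coding-exon summits were in both lists. The median distance to the nearest replicate 3 summit was 25 bp at promoters and 22 bp in introns. The promoter difference, both lists minus the others, was -6.78 percentage points with 50 bp allowed. With 250 bp, where 88.3% of promoter summits were in both lists, it was -14.8 points. The median pooled signal was 58.1 for peaks in both lists and 54.1 for the others.

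Promoter summits of the sub-threshold peaks sat mostly just upstream of the TSS. The median position was -85 bp, between -115 bp for peaks past IDR and -59 bp for the next ranks, and 829 of the 1103 (75.2%) were upstream, against 83.4% and 64.6%. Summits within 500 bp of TSSs on both strands made up 396 of the 1103 (35.9%). This was less than the 42.0% past IDR (Fisher's exact test, adjusted p = 0.00244) and more than the 24.3% of the next ranks (adjusted p = 6.06e-08, adjusted over these 2 comparisons, which were added after the values had been seen). Away from promoters, the median distance to a TSS was 3062 bp for intronic and 2695 bp for intergenic summits. More than 10000 bp from any TSS were 221 sub-threshold summits (8.25%), against 4.09% past IDR and 8.18% of the next ranks.

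**Figure D4:**
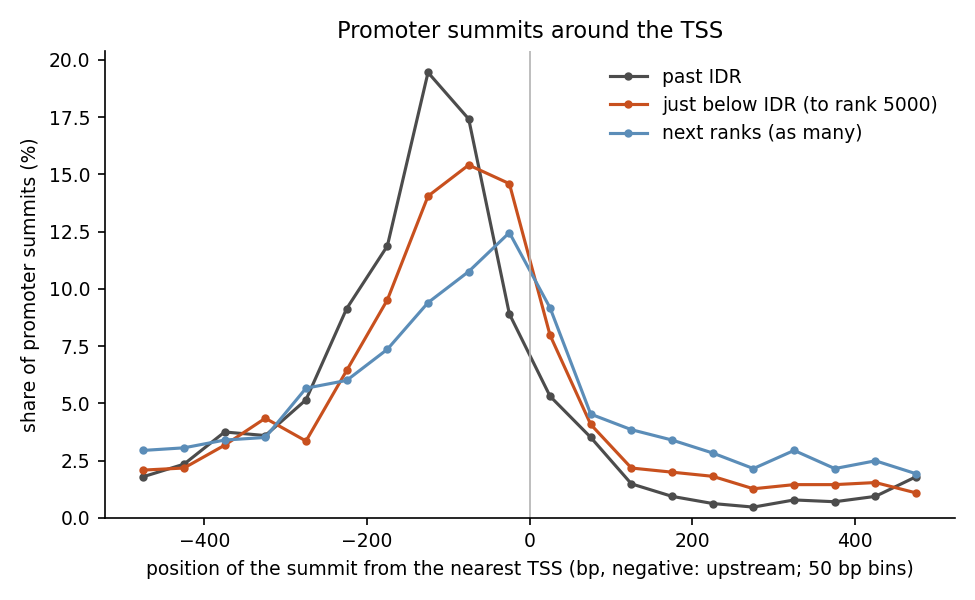
Position of promoter summits relative to the nearest TSS (x axis, bp, negative upstream, 50 bp bins) as a share of the promoter summits of each list (y axis, percent). Sub-threshold summits are most frequent between 100 and 50 bp upstream (15.4%), and peaks past IDR reach higher farther upstream.

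The summits had a low GC content, less so than peaks past IDR. The median over 101 bp was 35.6%, against 43.1% in windows 400 bp to each side, and the summit was below its flanks in 1835 of 2678 peaks (68.5%). The medians were 32.7% past IDR and 39.6% in the next ranks, whose summits were below their flanks in 79.9% and 54.2%. Over the 4 rank bins the median was 33.7%, 35.6%, 36.6% and 37.6%. At promoters the median was 36.6% and elsewhere 35.6%. The chromosome arms as a whole had 42.2%.

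**Figure D5:**
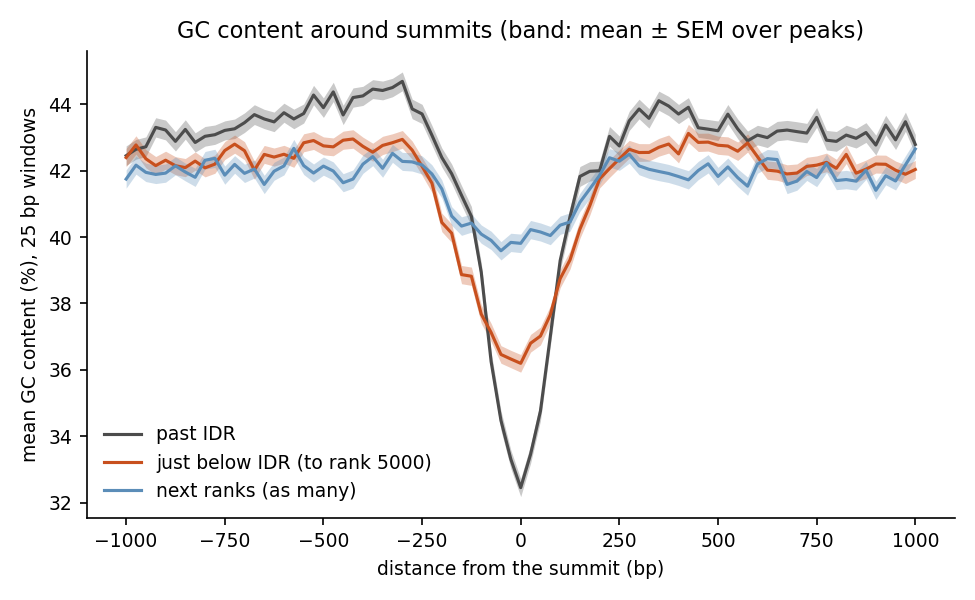
Mean GC content in 25 bp windows (y axis, percent, not from 0) by distance from the summit (x axis, bp), with a band of 1 SEM over peaks. At the summit the mean is 36.2% for sub-threshold peaks, between 32.5% past IDR and 39.8% in the next ranks.

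For 12 short elements searched on both strands of the 101 bp windows, no difference between sub-threshold peaks and peaks past IDR passed adjustment. The lowest ratio was that of ATGCAAAT, in 1.38% of sub-threshold windows and 2.07% past IDR (Fisher's adjusted p = 0.378). ACGTG, the core of the Trh and Tango element that is also part of TACGTG and CACGTG, was in 179 windows (6.68%) of sub-threshold peaks and in 6.68% past IDR (Fisher's adjusted p = 1). It was in 9.97% of the sub-threshold flanks and 8.20% of 101 bp tiles of the arms, which were higher in GC than the summits. At promoters ACGTG was in 6.89% of sub-threshold windows, against 11.2% of windows centred on protein-coding TSSs. The median GC content of those windows was 36.6% and 43.6%. TACGTG was in 57 windows (2.13%) against 1.89% past IDR (Fisher's adjusted p = 1), with 3.10% of the sub-threshold flanks and 2.20% of tiles. At summits away from promoters it was in 2.60% against 1.54% past IDR (Fisher's adjusted p = 0.342). A match is a description of the letters and not of binding.

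TATCGATA marked mostly promoter summits. It was in 51 windows (1.90%), against 0.261% of the flanks and 0.275% of tiles, and 1.94% past IDR (Fisher's adjusted p = 1). Of the 51, 44 were at promoters, where 3.99% of sub-threshold summits held it, against 0.444% elsewhere and 4.48% of windows centred on TSSs. The next ranks had 0.971%, a difference that did not pass adjustment (p = 0.00553, Fisher's adjusted p = 0.0663). TGTTTAC was in 4.03%, against 2.22% of flanks, 1.89% of tiles and 4.22% past IDR (Fisher's adjusted p = 1). GAGAG, which the GAGA factor binds, was in 11.0%, against 13.1% of flanks and 9.35% past IDR (Fisher's adjusted p = 0.378). CACCTG, which Snail-type factors bind, was in 3.45% of sub-threshold promoter windows and 1.56% of those past IDR (Fisher's adjusted p = 0.0386), a comparison by place made after seeing the data. Away from promoters the shares lay the other way, 2.03% and 2.98% (Fisher's adjusted p = 0.454), and over all windows they were 2.61% and 2.20% (adjusted p = 1). It was in 4.22% of the flanks of those promoters.

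A search of all 6-base sequences, made after these values had been seen and given no test, put ACACTG first among those in at least 100 sub-threshold windows. It was in 226 windows (8.44%) and 3.55% of flanks, with 7.19% past IDR and 6.91% in the next ranks. CGATAG (6.01% against 2.56% of flanks) and TATCGA (7.54% against 3.38%) overlap TATCGATA, and AATATT was in 16.9% against 7.73%. The longer GGTCACACT, which overlaps ACACTG in core promoter Motif 1, was in 27 windows (1.01%), 24 of them at promoters. That was 2.18% of sub-threshold promoter windows (1.40 to 3.22%), 0.781% past IDR (0.375 to 1.43%), 2.15% of the next ranks, 3.64% of TSS-centred windows and 0.0975% of tiles.

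Some sub-threshold peaks flanked stronger ones. Within 1000 bp of a summit past IDR were 250 (9.34%), against 179 of the next 2678 ranks (6.68%, Fisher's exact test, p = 0.000415), and 116 (4.33%) were within 250 bp. Another sub-threshold summit lay within 1000 bp of 246 (9.19%). Per megabase there were 20.0 sub-threshold peaks, from 11.1 on chromosome 4, where there were 15, to 22.3 on 3L.

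Of 13945 protein-coding genes, 3025 (21.7%) had a sub-threshold summit inside the gene or up to 2000 bp outside it, and 3130 (22.4%) had a peak past IDR. Both kinds were present at 1070 genes, so 1955 genes had a sub-threshold summit and no peak past IDR. By the nearest TSS, 1977 genes (14.2%) were assigned a sub-threshold peak, 581 of them also a peak past IDR. Long genes hold more summits by either rule. The median span was 3818 bp for genes with a sub-threshold summit and 1930.5 bp for those without. The share with one was 13.3% for genes up to 2000 bp, 21.6% up to 5000 bp, 32.9% up to 20000 bp and 49.1% for longer ones. By nearest TSS it was 7.79%, 12.2%, 23.7% and 39.8%.

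The genes with most sub-threshold summits were long. kirre, an adhesion gene of myoblast fusion that spans 394149 bp, held 10, all intronic and 8 of them in both replicate lists, beside 8 peaks past IDR. SNF4Agamma, the gamma subunit of the kinase AMPK, and hth, a homeodomain partner of the Hox proteins, held 9 each, of which 6 each were in both lists. CG43658 held 8. CG32264, bun (a TSC22-family gene), ftz-f1 (a nuclear receptor) and pyd (the ZO-1 protein of cell junctions) held 7 each. Among genes with no peak past IDR, Tet and CG6191 held 6 each. In Tet all 6 were intronic over 92952 bp, whereas CG6191 spans 13027 bp and overlaps CG45088, which held 5. Nak, a kinase gene of 11013 bp, held 5, all in both replicate lists.

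Of 23 regulators of tracheal development, 14 (60.9%) had a sub-threshold summit inside or up to 2000 bp outside. The share was 21.7% of all protein-coding genes and 32.9% of genes from 5000 to 20000 bp long. By this span rule 9 of the 14 had no peak past IDR, and peaks past IDR were at 5 of the 23. By nearest TSS 16 of the 23 (69.6%) had a sub-threshold peak, against 14.2% of all genes and 23.7% of genes from 5000 to 20000 bp long. Of these 16, pnt, stumps, sty, trh, vvl, rib, salm, aop and noc were also assigned a peak past IDR by nearest TSS. The median span of the list was 11319 bp. Several of the genes with a summit, among them pnt, ttk, bnl and trh, are longer than 20000 bp. Of all genes that long, 49.1% had a sub-threshold summit by span and 39.8% by nearest TSS. Lists with no tracheal theme were as high by span, with 9 of 12 ecdysone genes, 7 of 10 glial markers and 13 of 21 Polycomb and trithorax group genes. By nearest TSS these lists had 58.3%, 30.0% and 38.1%, each below the tracheal list. The nearest-TSS rule sets no distance limit, and gene length does not account for the space between genes. The strongest peaks assigned to vvl, salm and kni lay 17554, 27887 and 26934 bp away. The ecdysone list had a median span of 55678.5 bp, and the glial list shares pnt with the tracheal list. A count over a list chosen with results known was given no test.

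At trh itself 1 sub-threshold peak lay in an intron, with its summit at position 385013 of 3L, 7620 bp from the nearest TSS (gene on the minus strand at 366524 to 392633). It ranked 4738 with a signal of 49.6 and a −log10 q of 0.917, and was in both replicate lists. Its rank was only 17218 of 28743 in replicate 1 (signal 17.8), and 3748 of 30000 in replicate 3 (signal 24.4). The peak past IDR at trh ranked 1587, with its summit at 377663, 347 bp from the nearest TSS. That TSS lies inside the gene and not at its 5' end. tgo had neither a sub-threshold summit nor a peak past IDR.

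Among the other regulators, the FGF branch that guides tracheal outgrowth had bnl, the ligand, with 2 intronic summits and no peak past IDR. The stronger, on 3R at 19824690, had a pooled signal of 58.9. It ranked 2922 in replicate 1 (signal 41.3) and 14444 in replicate 3 (signal 15.6). stumps, the adaptor of the FGF receptor, had 1 at a promoter, 172 bp from its nearest TSS, beside 3 peaks past IDR. The stumps summit had a signal of 64.9 in the pool, and ranked 5196 in replicate 1 (signal 30.4) and 1919 in replicate 3 (signal 32.9). sty (sprouty), an inhibitor of the receptor signal, had an intronic summit 998 bp from its nearest TSS with 57.0 in the pool. That summit ranked 6886 in replicate 1 (signal 26.7) and 2319 in replicate 3 (signal 29.9). These peaks at bnl, stumps and sty were in both replicate lists. By nearest TSS sty had 3 sub-threshold peaks, and the strongest, outside the gene and 13676 bp from its TSS, had 68.1 in the pool and 68.5 in replicate 1, and no match in replicate 3.

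Of the genes of EGF signalling, rho, the protease that releases the ligand, had an intronic summit with a pooled signal of 54.1. That summit ranked 6733 in replicate 1 (signal 26.9) and 2492 in replicate 3 (signal 28.8). pnt, the ETS activator downstream, had 4 summits, 3 of them in both lists. Its strongest had a signal of 70.4 in the pool and 42.3 in replicate 1, and no match in replicate 3. aop, the opposing ETS repressor, had 1 in replicate 3 alone, with 48.5 in the pool and 22.9 in that replicate. In the list of 21 EGF receptor pathway genes 13 (61.9%) had a sub-threshold summit and 12 a peak past IDR by span. By that rule 3 had the first alone (Cbl, sty and rho), though by nearest TSS sty also had a peak past IDR. The median span of the list was 9416 bp. All protein-coding genes had 21.7%, and genes from 5000 to 20000 bp long 32.9%. By nearest TSS the list had 10 (47.6%), against 14.2% and 23.7%.

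Transcription factors of the tracheal branches gave a mixed picture between replicates. ttk, a zinc-finger repressor, had 3 summits and no peak past IDR. Its strongest had 65.3 in the pool, and ranked 6826 in replicate 1 (signal 26.8) and 2150 in replicate 3 (signal 31.1). The strongest at rib, a BTB factor of tube morphogenesis, had 69.3 in the pool. That one ranked 3868 in replicate 1 (signal 35.6) and 1872 in replicate 3 (signal 33.5). Single-replicate summits were those at peb (replicate 1, signal 42.0), noc (replicate 1, 45.6) and knrl (replicate 3, 34.5). By nearest TSS alone, distal peaks were assigned to vvl, a POU factor (17554 bp away, pooled signal 69.0, replicates 38.1 and 29.2), to salm (27887 bp, 72.8, replicates 42.8 and 29.1) and to kni (26934 bp, 51.2, replicates 30.2 and 14.8). Signals of the pool and of each replicate are not on 1 scale.

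Of 24 genes of the tracheal tube, with a median span of 8737 bp, 8 (33.3%) had a sub-threshold summit, close to the 32.9% of genes from 5000 to 20000 bp long, and 8 a peak past IDR, and 2 had the first alone, nrv2, a subunit of the sodium pump, and Lac, a septate junction protein. pyd had 7 summits, and crb, the apical polarity determinant, had 2, both in both replicate lists. Of 11 bHLH-PAS genes, with a median span of 20370 bp, 4 (36.4%) had a sub-threshold summit, against 49.1% of genes longer than 20000 bp. All 4 also had a peak past IDR. They were sim, the midline factor (signal 74.0, replicate ranks 2306 and 4879 with signals 47.3 and 22.2), tai with 4 summits, gce with 3, and trh. Of 15 salivary genes, with a median span of 10159 bp, 7 (46.7%) had a sub-threshold summit. None of the 7 was without a peak past IDR, and among them were CrebA with 3 and fkh with 1. Of 13 posterior spiracle genes, with a median span of 19464 bp, 5 (38.5%) had one. The share was 32.9% for genes from 5000 to 20000 bp and 49.1% for longer ones. There were 5 summits at cv-c and 3 at grn, the GATA factor, which had no peak past IDR.

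Other lists of regulators are given beside 21.7% of all genes by span and 14.2% by nearest TSS. Genes longer than 20000 bp had 49.1% and 39.8%. The Hox (30563 bp), ecdysone (55678.5 bp), FGF (22473 bp) and muscle (22201 bp) lists had median spans of that length. Genes from 5000 to 20000 bp had 32.9% and 23.7%, and the segment polarity, Dpp, glial, hemocyte, neuronal and epidermal lists had median spans in that range. Genes from 2000 to 5000 bp had 21.6% and 12.2%. The Notch (3847 bp), germline (4979 bp) and gap and pair-rule lists had median spans of that length. Hox genes and their cofactors had 5 of 10, led by hth and by Antp. The strongest summit at Antp, at rank 2328, had replicate ranks of 3687 (signal 36.5) and 1360 (signal 40.2). The ecdysone list had 9 of 12, segment polarity 7 of 17, Notch 6 of 19, Dpp 8 of 17 and FGF 5 of 8. Counted by nearest TSS, Hox had 5, ecdysone 7, segment polarity 9, Notch 5 (26.3%), Dpp 8 and FGF 5. Gap and pair-rule genes had 1 of 17 (5.88%), a promoter summit at hairy (listed as hry), and a median span of 2833 bp. By nearest TSS they had 4 (23.5%). Markers of other cell types were also represented by span, with 8 of 17 for muscle, 7 of 10 for glia, 5 of 13 for hemocytes, 4 of 13 for neurons and 2 of 8 for germline, and 3 of 14 (21.4%) for epidermis and cuticle. Among the neuronal markers ChAT and VAChT, overlapping genes, share 1 summit. By nearest TSS the counts were 7 for muscle, 3 for glia, 3 for hemocytes, and 1 each for neurons (7.69%), germline (12.5%) and epidermis (7.14%).

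Cytosolic ribosomal protein genes had 33 of 93 (35.5%) with a sub-threshold summit, against 21.7% of all genes and 13.3% of genes up to 2000 bp long. Their median span was 1318 bp. A peak past IDR was at 66 of the 93, and 10 had a sub-threshold summit alone. RpL10Ab, for example, had a promoter summit at rank 2454 with a pooled signal of 72.0. Its replicate ranks were 2160 (signal 48.8) and 8807 (signal 18.3). Mitochondrial ribosomal protein genes had 21 of 73 (28.8%), 13 of them without a peak past IDR, and proteasome genes 8 of 48 (16.7%). By nearest TSS these shares were 22.6%, 4.11% and 12.5%, against 14.2% of all genes and 7.79% of genes up to 2000 bp. Polycomb and trithorax group genes had 13 of 21 and insulator genes 6 of 14, with median spans of 7560 and 3280 bp. By span, 32.9% of genes from 5000 to 20000 bp and 21.6% of genes from 2000 to 5000 bp had a sub-threshold summit.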

How the data were processed

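ChIP-seq peak lists of 2 biological replicates of 1 group of trh-GFP embryos were used. The authors deposited lists in narrowPeak layout for each replicate, for the pooled replicates and for peaks past IDR, and 4 dm6 lists were used here. The 4 dm3 lists were not used. The signal value is a score from the authors' peak caller, and the deposited −log10 values are q-values. The aligner is not given in the sources used here, nor are peak caller and IDR threshold. No read counts enter the lists, so depth is unknown.

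Pooled peaks were ranked by signal. Summits were classed with Ensembl BDGP6.54 (release 115), and elements were searched in 101 bp windows of the release 6 genome. Genes were given peaks by span with 2000 bp or by nearest TSS of 13945 protein-coding genes. Shares were compared with two-sided Fisher's exact tests, adjusted over 7 classes or 12 elements, and intervals are exact binomial. The test of the promoter share was tried on simulated peaks with and without a planted difference. For the elements, only the finding of planted TATCGATA was tried, without a test. Alternatives were other distances, windows, overlaps, gene rules and each replicate's own list. Members, elements and the gene lists were chosen with earlier results of these data known. The ribosomal list was matched by symbol and may hold paralogs. As first drawn up it held qm, which encodes no ribosomal protein and was left out after its values had been seen (34 of 94 genes with a sub-threshold summit before, 33 of 93 after). Named are peaks at both ends of the ranks, those best in both replicates or missing from 1 or both, those with TACGTG or TATCGATA, genes with most summits, trh, tgo and up to 4 genes a list by signal. Tracheal and EGF genes beyond those 4, the count of promoters with TSSs on both strands, the 6-base sequences and GGTCACACT were added after seeing the data. Python 3.11.15, numpy 2.4.6, scipy 1.17.1, pandas 2.3.3 and matplotlib 3.10.9 were used.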

Additional observations from a re-analysis of the deposited data

How the results depend on the processing

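Of 63 alternative values for 12 results, 50 kept their direction and their side of the threshold. The share of sub-threshold peaks in both replicate lists moved from 75.9% to 54.2% when 50 bp was allowed, to 91.2% at 250 bp, to 88.7% with intervals overlapping by 50%, and to 21.8% when only the 5000 strongest peaks of each replicate counted. The promoter difference to peaks past IDR ran from -10.8 to -21.8 percentage points over the lists of single replicates, the intron difference from 5.71 to 6.67 and the intergenic one from 2.60 to 7.26, and all of these passed 0.05.

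For the 4 elements recomputed no difference to peaks past IDR passed the threshold in any of these settings, and the log2 ratios to peaks past IDR changed sign around 0. For ACGTG they were -0.054 at 25 bp, -0.092 at promoters and -0.018 for peaks in both lists, for TATCGATA 0.25 at promoters and 1.21 elsewhere, for TGTTTAC 0.15 at promoters, and for GAGAG -0.039 at 100 bp and -0.0014 at promoters. In the replicate lists ACGTG ran from 0.12 to 0.15, TATCGATA from -0.60 to -0.21, TGTTTAC from -0.53 to 0.057 and GAGAG from 0.057 to 0.30. The cause of these changes was not tested. The settings of the split by replicate support, the matching to the nearest summit and the 500 and 2000 bp distances to peaks past IDR were chosen after seeing the data. No paired analysis was possible because the series has 1 group. Depth is unknown, and weak peaks missing from a replicate list cannot be called absent.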
